A study of Homo sapiens with 12 samples.

Results

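The comparison described here is PRMT5 knockdown against control in irradiated prostate cancer cells, read across all genes with enough counts. Its members are 6 of the 12 libraries of the series, 3 irradiated knockdown libraries and 3 irradiated controls, matched as pairs by the replicate number in their labels. The cells were LNCaP-shPRMT5, an LNCaP line that carries an inducible short hairpin RNA against PRMT5. LNCaP is an established human prostate cancer line derived from a lymph node metastasis. Cells of all groups grew in RPMI1640 with 10% fetal bovine serum. Doxycycline (1 µg/mL, renewed every 48 h) was given to knockdown cells and not to controls. Both groups then received 2 Gy of ionizing radiation and were harvested 24 h later, so each difference below is a difference between irradiated cells. Doxycycline and the hairpin always came together, and an effect of the drug itself or of the hairpin on other messages cannot be told apart from loss of PRMT5. The labels do not state that replicates are separate cultures; p-values therefore measure only how these samples vary, and that variation may be technical.

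PRMT5 is the main enzyme that adds symmetric dimethyl marks to arginine side chains. It works with WDR77 as an octameric core called the methylosome, and adaptor proteins bring it to histones or to the Sm proteins that form the core of spliceosomal particles. In prostate cancer cells it is studied as a regulator of transcription and of the DNA damage response. Ionizing radiation breaks both DNA strands, which activates checkpoint kinases and p53 and is followed by repair through end joining or homologous recombination. The design asks which messages differ when these cells are irradiated with little PRMT5.

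The irradiated libraries held 23017850 to 33158865 counts, and on the CPM scale, counts divided by the size of their library, a limit of 3 counts, which a gene with no count could still hold, was 0.0905 to 0.130 CPM and covers counting error only. Both libraries of pair 1 stood apart from those of pairs 2 and 3. Between control replicates the chi-square of the counts was 144 and 116 per gene for replicate 1 against 2 and 3, and 13.7 for 2 against 3. The same values were 82.4, 62.3 and 9.79 for the knockdown libraries. Deviations from the group mean correlated at 0.78, 0.61 and 0.61 for libraries of the same number, and at -0.68 to 0.48 for libraries of different numbers. The messages that set pair 1 apart included those of DNA replication, whose list of 40 genes averaged 5.65 log2 CPM in control 1 and 3.80 and 3.79 in controls 2 and 3. Most results below are therefore given pair by pair, and counts are given without each pair in turn.

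PRMT5 itself (chromosome 14, 22920511 to 22929585, minus strand, GRCh38) stood at 230.4, 187 and 187 CPM in the controls and 31.3, 26.9 and 24.9 CPM in the knockdown libraries. The groups did not overlap, and pair 1 was no exception. The log2 fold change was -2.86 (SE 0.07, edgeR's quasi-likelihood test with Benjamini-Hochberg adjustment, adjusted p = 6.43e-10). Within pairs 13.6%, 14.4% and 13.3% of the message remained. A 2-sided exact permutation test of the 6 libraries gave p = 0.1, the smallest that 3 against 3 allow. Of its exon positions 27.1% also lie in exons of another gene, so its level may hold counts that could belong to either.

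After 2 Gy the knockdown raised 934 genes (5.43% of the 17191 tested) and lowered 1040 (6.05%), so that 11.5% of tested genes were called at an adjusted p under 0.05. The median log2 fold change of all tested genes was 0.003, with pair medians of 0.002, -0.008 and 0.013. Changes were mostly small: the median was 0.33 among the raised genes and -0.52 among the lowered ones. Beyond a 2-fold change there were 48 raised and 169 lowered genes. Of the called genes, 828 raised and 962 lowered ones code for proteins.

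All but a few called genes moved the same way in all 3 pairs, 933 of the 934 raised and 1035 of the 1040 lowered. A paired test favours genes whose pairs agree, so this agreement is no separate support for the calls. Over all tested genes, 26% were higher and 25.7% lower in all 3 pairs. The 3 knockdown libraries lay above all controls for 402 of the raised genes and below all controls for 562 of the lowered ones. Over all tested genes, groups that did not overlap made up 13.5% (5.82% upward and 7.72% downward). Leaving out pair 1 gave 880 raised (5.04%) and 967 lowered genes (5.54%), which include only 594 of the 934 and 717 of the 1040. Leaving out pair 2 gave 84 (0.479%) and 270 (1.54%), and leaving out pair 3 gave 68 (0.384%) and 214 (1.21%). The calls kept in all 3 of these fits were 55 raised and 198 lowered genes. Treating the libraries as unpaired left 1 raised (0.00582%) and 50 lowered genes (0.291%). Fitting the 6 irradiated libraries alone, still as pairs, gave 1188 raised (7.31% of 16248) and 1699 lowered genes (10.5%), which include 905 of the 934 and 1025 of the 1040.

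**Figure D1:**
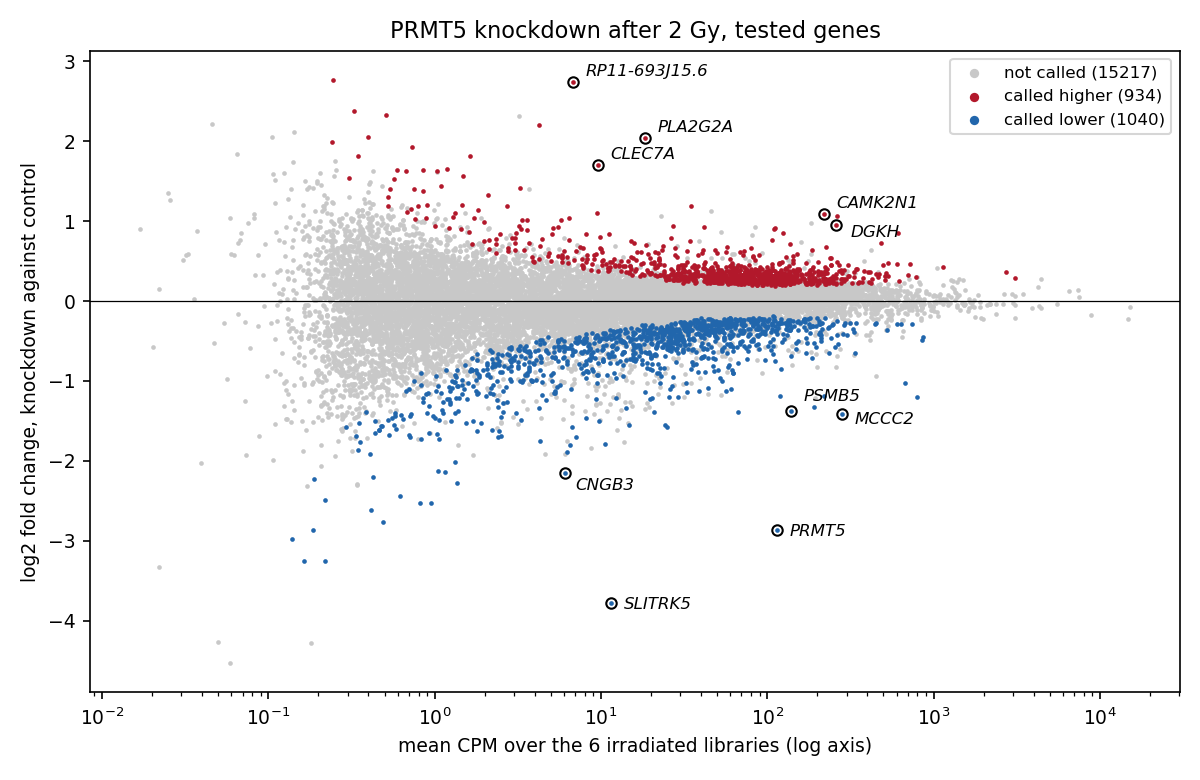
Each point is a tested gene, with its mean CPM over the 6 irradiated libraries on a log axis and the log2 fold change of knockdown against control on the vertical axis; red and blue mark the 934 raised and 1040 lowered genes. PRMT5 (-2.86) and SLITRK5 (-3.78) lie farthest down among genes above 5 CPM, and the lowered side reaches farther than the raised one.

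Among lowered genes with a mean of at least 5 CPM, SLITRK5 had the largest change. It encodes a neuronal transmembrane protein of the SLITRK family and lies on chromosome 13 (87672615 to 87696272). It stood at 6.37, 28.3 and 29.9 CPM in the controls and 0.538, 2.39 and 1.66 CPM in the knockdown libraries (log2 fold change -3.78, SE 0.24, edgeR adjusted p = 6.45e-05). Controls 2 and 3 held more than 4 times the level of control 1, yet every knockdown library lay below every control. CNGB3, a subunit of the cone photoreceptor channel, fell from 11.5, 10.4 and 7.89 CPM to 2.5, 2.18 and 1.98 CPM (-2.15, SE 0.17). Pair differences spanned 0.72 for SLITRK5 and 0.26 for CNGB3 on the log2 scale.

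Other lowered genes belong to metabolism. BOLA3, which helps to assemble mitochondrial iron-sulfur clusters, stood at 24, 13.7 and 10.7 CPM in the controls and 8.33, 3.16 and 3.15 CPM in the knockdown libraries (-1.79, SE 0.15, edgeR adjusted p = 4.47e-05). MCCC2, the beta subunit of the leucine-degrading enzyme methylcrotonyl-CoA carboxylase, stood at 491, 368 and 365 CPM and 194, 137 and 132 CPM (-1.41, SE 0.07, adjusted p = 8.2e-07). Its groups were widely separated and its pairs nearly alike, at -1.34, -1.43 and -1.47. The alcohol dehydrogenase gene ADH1C (-1.71, SE 0.16), the phosphotriesterase-related gene PTER (-1.58, SE 0.10) and the prostaglandin-degrading dehydrogenase HPGD (-1.55, SE 0.15) fell as well. HPGD stood at 80.4, 12.2 and 10.5 CPM in the controls and 36.9, 2.92 and 3.33 CPM in the knockdown libraries. Knockdown 1 was above controls 2 and 3, so its groups overlap although each pair fell.

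RNF14, a ubiquitin ligase also known as a coactivator of nuclear receptors, stood at 104, 97.5 and 85.6 CPM and 46.3, 33.6 and 30.7 CPM (-1.39, SE 0.08, edgeR adjusted p = 6.29e-06). The remaining genes of this set were MAATS1 (-1.89), TMPRSS11E (-1.80), TRGC1 (-1.57), LINC01297 (-1.55), GPX8 (-1.50) and CTD-2314B22.1 (-1.46). Between 16.1% and 43.0% of the 50-base words of MAATS1, ADH1C, TRGC1, LINC01297 and CTD-2314B22.1 also occur in transcripts of other genes, so their counts are uncertain. Counting PRMT5, 13 of these 15 genes stayed called without any 1 pair. TMPRSS11E, a serine protease, was lost without pair 1, 2 or 3 (adjusted p = 0.078, 0.151 and 0.128). GPX8, a glutathione peroxidase of the endoplasmic reticulum, was lost without pair 2 or 3 (0.22 and 0.214).

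The raised genes with the largest changes started from low levels and leaned on pairs 2 and 3. A lincRNA named RP11-693J15.6 stood at 2.44, 1.55 and 1.18 CPM in the controls and 7.14, 13.8 and 14.5 CPM in the knockdown libraries (log2 fold change 2.74, SE 0.46, edgeR adjusted p = 0.0205). PLA2G2A, a secreted phospholipase A2, stood at 3.44, 8.3 and 7.85 CPM and 6.61, 40.9 and 43.3 CPM (2.04, SE 0.30). Its pair differences were 0.93, 2.29 and 2.45, and knockdown 1 lay within the range of the controls. CLEC7A, the beta-glucan receptor dectin-1, had pair differences of 0.80, 2.18 and 2.40. For these 3 genes the adjusted p rose to between 0.0959 and 0.161 without pair 2 or 3.

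Changes of about 2-fold that held without any 1 pair were seen for 6 of the 15 raised genes. S1PR3, a receptor for sphingosine-1-phosphate, stood at 10.6, 3.73 and 4.21 CPM in the controls and 20.2, 9.07 and 9.12 CPM in the knockdown libraries (1.10, SE 0.14, edgeR adjusted p = 0.000667). CAMK2N1, an inhibitor of calcium/calmodulin-dependent kinase II, stood at 77.7, 169.7 and 164 CPM and 144, 386 and 372 CPM (1.09, SE 0.11). DGKH, a diacylglycerol kinase, stood at 98.3, 219 and 215 CPM and 195, 411 and 418 CPM (0.95, SE 0.08, adjusted p = 3.62e-05). In CAMK2N1 and DGKH, knockdown 1 lay below controls 2 and 3 although every pair rose by a similar factor. OTUD3, a deubiquitinase, DRAM1, a lysosomal regulator of autophagy, and TNFSF15, a cytokine of the tumor necrosis factor family, changed by 0.94, 0.92 and 0.91.

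ZNF703 (1.19), BTG1 (1.07), HGD (1.04), BCL3 (1.02), KCNU1 (0.93) and MT-TS1 (0.91), annotated as a mitochondrial serine transfer RNA, complete the set. The libraries were polyadenylated and the strand setting is not given, so it is uncertain that counts of MT-TS1 come from the transfer RNA. BTG1 is an antiproliferative factor and BCL3 a nuclear cofactor of NF-kB. All 15 stayed called without pair 1, and 6 did without pair 2 and without pair 3.

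**Figure D2:**
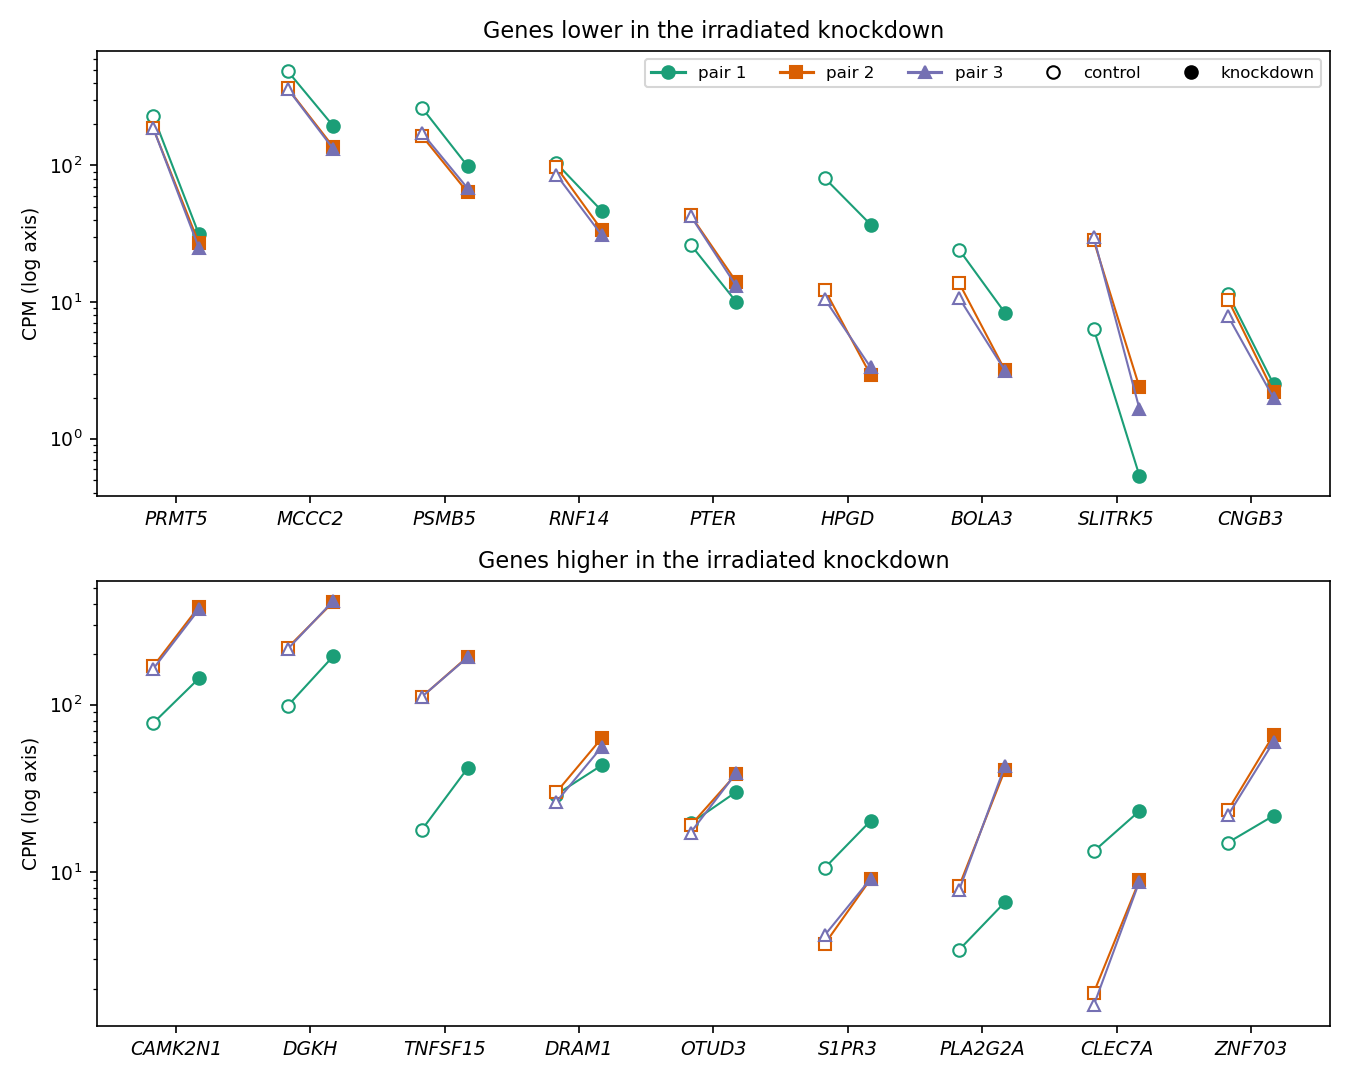
CPM of 18 named genes in each irradiated library on log axes, controls as open and knockdown libraries as filled symbols, joined within pairs. PRMT5 fell by a like factor in the 3 pairs, while HPGD and TNFSF15 differ more between pair 1 and the other pairs than between the groups of a pair.

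A 7-base word, TTCCCTA, had been noted in the 3′ untranslated regions of lowered genes in earlier work on these same data, so its share is given only as a description. It was found in the 3′ untranslated region of 206 of 960 lowered genes (21.5%), 82 of 824 raised genes (9.95%) and 9.32% of genes not called, against 10.3% of all 12657 tested genes with an annotated region. Its reverse complement, TAGGGAA, was in 11.5%, 16.0% and 9.98% of the same classes. Longer regions hold more words of any kind. In regions of 1501 to 3000 bases the word was in 31.2% of lowered, 7.56% of raised and 12.2% of uncalled genes, and in regions over 3000 bases in 40.7%, 23.8% and 30.1%. In regions of up to 500 bases it was in 5.12% of lowered genes, in 1.22% of uncalled genes and in 0 of 141 raised genes. Of the named lowered genes with the largest changes, 3 of the 12 with an annotated region hold it, and 0 of the 13 such raised genes do.

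The sites below show the word in a selection of lowered genes with large changes and a mean of at least 5 CPM. They are not a full ranking of the lowered genes that hold it. Each site is given as 30 bases from GENCODE 29 transcripts, 5′ to 3′, with the word in capitals. The first is from the coding part of PRMT5 (transcript ENST00000324366.12, base 1974, across an exon junction), where 10 of 28 annotated transcripts hold it; the others are from 3′ untranslated regions.
PRMT5: ttcccatcctcTTCCCTAttaagcagccca
BOLA3: tgacatcattcTTCCCTAagcagtcaccaa
MCCC2: gctggattagcTTCCCTActctatgctctt
RNF14: gtggattgtttTTCCCTAatcttccgtcaa
HAUS1: taaacatccttTTCCCTAacaaagtaaatt
HLA-B: caacttcttacTTCCCTActgaaaataaga
GDPD1: ttcatgatcatTTCCCTAagccatttccag
ABHD2: gtacatctagtTTCCCTAttaaaaatgtgt

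The BOLA3 site lies at chr2:74135511-74135540 (minus strand), MCCC2 at chr5:71658395-71658424 and RNF14 at chr5:141987815-141987844. HAUS1 lies at chr18:46128137-46128166, HLA-B at chr6:31353987-31354016 (minus strand), GDPD1 at chr17:59273830-59273859 and ABHD2 at chr15:89195711-89195740, all in GRCh38. Over their whole length the flanks differ from gene to gene, while some share the bases next to the word, such as ttaa after it in PRMT5 and ABHD2. Beside BOLA3, MCCC2 and RNF14 above, ABHD2, an abundant lipase message, went from 1106 ± 228 CPM to 476.8 ± 64.3 CPM (SD, n = 3 each; -1.20, SE 0.09, edgeR adjusted p = 2.91e-05). The genes without the word in this region include SLITRK5 and CNGB3. A match is a description of these letters and names no factor.

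**Figure D3:**
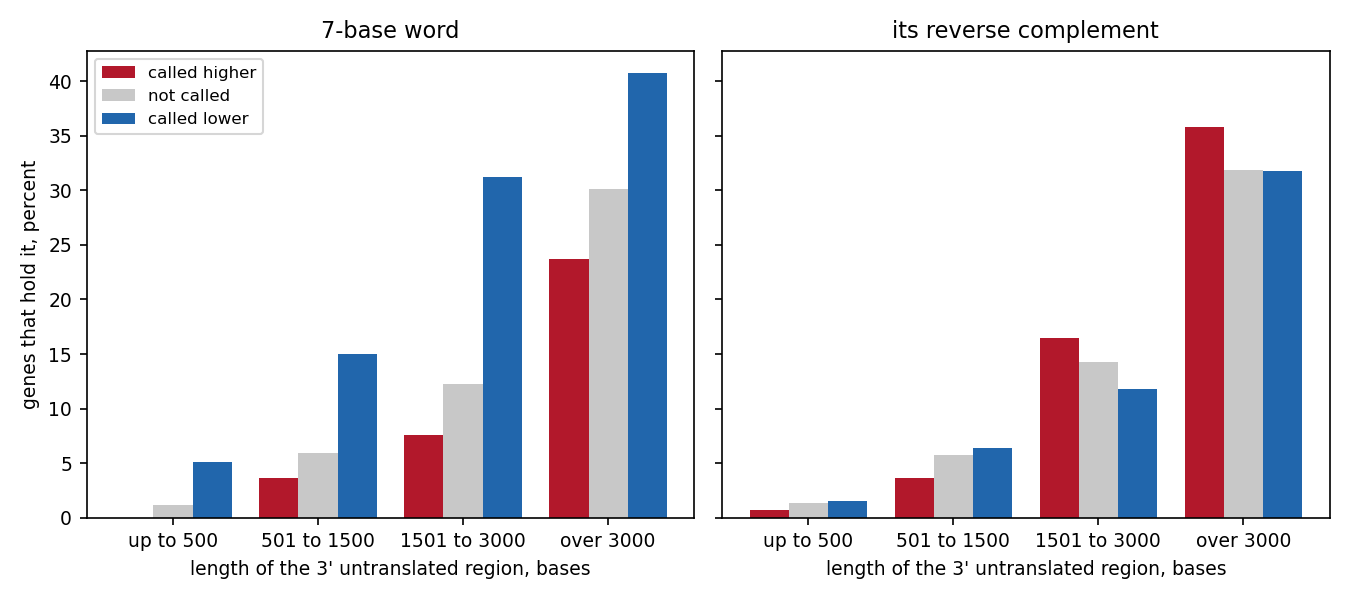
Percent of genes whose 3′ untranslated region holds the 7-base word (left) or its reverse complement (right), by length of the region, for raised, uncalled and lowered genes. For the word the lowered genes stand highest in each length class, 31.2% against 12.2% of uncalled genes at 1501 to 3000 bases; for the complement the same bars are 11.8% and 14.3%.

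Of 27 tested genes within 500 kb of PRMT5 on chromosome 14, 4 fell and 0 rose. Counts from the full 12-library fit, in this and the following groups, stand against 5.43% raised and 6.05% lowered over all tested genes. Those from the fit of the 6 irradiated libraries alone stand against 7.31% and 10.5%. Counts without pair 1 stand against 5.04% and 5.54%, without pair 2 against 0.479% and 1.54%, and without pair 3 against 0.384% and 1.21%. At the shares without pair 2 or 3, a short list with 0 calls says little about its genes. PSMB5, the catalytic proteasome subunit with chymotrypsin-like activity, lies 87.0 kb from PRMT5. It stood at 265, 165 and 173 CPM in the controls and 98.9, 63.5 and 68 CPM in the knockdown libraries (log2 fold change -1.38, SE 0.06, edgeR adjusted p = 2.02e-07), with no overlap of the groups. HAUS4, a subunit of the spindle complex augmin, fell by 0.61 on the log2 scale, EFS, an adaptor of Src kinases, by 0.59, and PPP1R3E by 0.28. PPP1R3E was not called without pair 1, 2 or 3, and the other 3 were. The nearest gene tested, RBM23, was at 0.01 (adjusted p = 0.938).

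In the methyltransferase complex, 2 partners fell with PRMT5. WDR77, the obligate partner, stood at 89.1, 51.1 and 54.2 CPM and 54.8, 40.9 and 41.9 CPM (-0.47, SE 0.08, edgeR adjusted p = 0.00545), and 36.5% of its exon positions overlap another gene. COPRS, which brings PRMT5 to histones, was at -0.34 (SE 0.07, adjusted p = 0.0154), and its adjusted p was 0.0694 to 0.091 without any 1 pair. The adaptors CLNS1A (-0.14) and RIOK1 (0.09) were not called. Of the 7 other arginine methyltransferases tested, PRMT9, another symmetric dimethylating enzyme, rose from 24.7, 39.3 and 31 CPM to 31.1, 63.8 and 52.8 CPM (0.60, SE 0.11, adjusted p = 0.00554). Without pair 2 or 3 its adjusted p was 0.0834 and 0.091. The main asymmetric enzyme, PRMT1, was at 0.14 (adjusted p = 0.236).

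No message of 2 lists of the splicing machinery that PRMT5 modifies passed the test in the 12-library fit. None of 29 Sm proteins and snRNP assembly factors was called (median 0.07, range -0.21 to 0.25, edgeR; 5 higher and 0 lower at an unadjusted p under 0.05; 0 by DESeq2 and by limma-voom). None of 28 SR proteins and hnRNPs was called either (median 0.07, range -0.16 to 0.21; 1 higher and 1 lower unadjusted; 0 by both other tools). The 6-library fit called GEMIN5 higher (adjusted p = 0.0489) and SNRPA lower (0.0409) in the first list and 0 in the second. Without pair 1 the counts were 2 raised in the first list, and 1 raised and 1 lowered in the second. Among 9 kinases that phosphorylate splicing factors, SRPK1 fell (-0.24, adjusted p = 0.0272) and DYRK1B rose (0.28, 0.0302), and neither was called without pair 2 or 3.

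Mitotic messages were lower in every irradiated pair. All 35 genes of a G2/M and mitosis list had negative differences in all 3 pairs, against 25.7% of all tested genes. The list median was -1.06, with pair medians of -0.71, -1.31 and -1.20. The list mean was 4.91, 4.68 and 4.56 log2 CPM in the controls and 4.24, 3.48 and 3.40 in the knockdown libraries, so every knockdown library lay below every control. KIF2C, a microtubule-depolymerizing kinesin, had the most negative value of the list, 21.4, 17.4 and 16.8 CPM in the controls and 9.64, 4.78 and 4.49 CPM in the knockdown libraries (-1.62, SE 0.97, edgeR adjusted p = 0.367).

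These differences passed or missed the test according to which libraries set the spread. With the spread estimated over all 12 libraries, 2 of the 35 were called: INCENP, a scaffold of the chromosomal passenger complex (-0.79, SE 0.13, edgeR adjusted p = 0.00302), and BUB3, a spindle checkpoint protein (-0.34, SE 0.06, 0.00617). With the 6 irradiated libraries alone 34 were called, all lower, the exception being TOP2A (adjusted p = 0.076). In that fit the mitotic kinase PLK1, at 24.7, 25 and 30.2 CPM in the controls and 14.6, 8.51 and 10.5 CPM in the knockdown libraries, had an adjusted p of 0.00251. CCNB1, the main mitotic cyclin, at 110.2, 97.6 and 95.2 CPM and 96.1, 66.3 and 65.2 CPM, had 0.00773. The 3 pairs without irradiation differed among themselves, with list medians of -0.95, 2.70 and 1.91. Without pair 1, 2 or 3 the 12-library fit called 2, 1 and 0 of the list.

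Of 40 genes of DNA replication and G1/S, 39 had negative fold changes, against 8517 of all 17191 tested genes. The pair medians were -0.65, -0.12 and -0.08, and 21 of 40 were lower in all 3 pairs. PRIM1, a primase subunit, was the single call (-0.64, SE 0.17, edgeR adjusted p = 0.0411), and it was lost without any 1 pair (0.139 to 0.225). The 6-library fit called 10 lower, among them the licensing factors CDC6, CDT1 and ORC6, and 0 higher. RRM2, a ribonucleotide reductase subunit, shows how far pair 1 differed: it stood at 88.3, 4.2 and 3.83 CPM in the controls and 48.9, 3.38 and 3.46 CPM in the knockdown libraries.

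**Figure D4:**
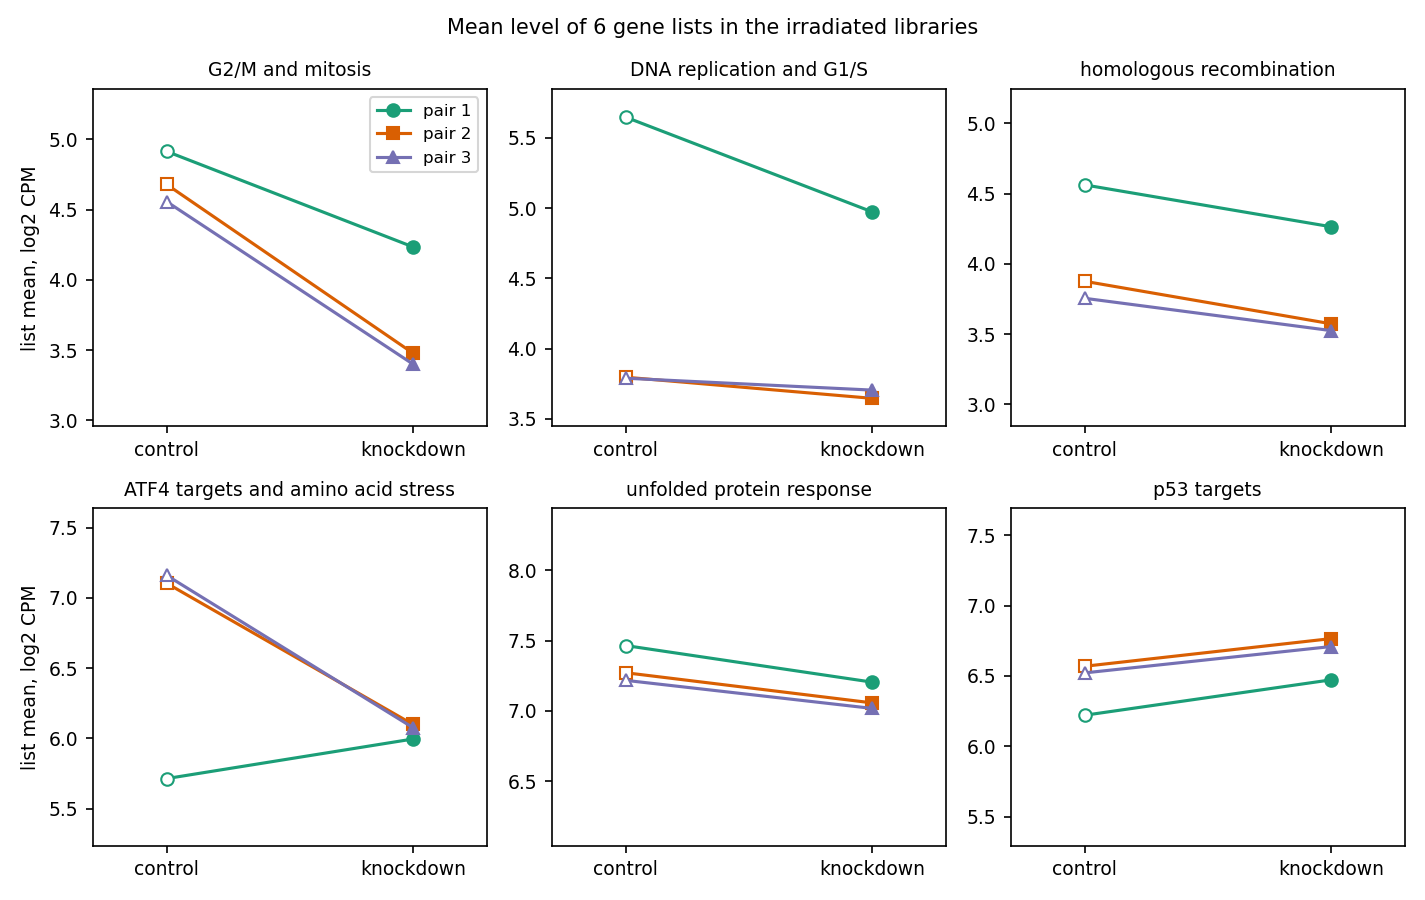
Mean log2 CPM of 6 gene lists in each irradiated library, joined within pairs; each panel spans 2.4 log2 units. G2/M genes were lower in all 3 pairs, replication genes stood far higher in pair 1 and differed most there, and ATF4 targets stood low in control 1 (5.71) against controls 2 and 3 (7.10 and 7.16).

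Of 30 repair genes of homologous recombination, 25 had negative fold changes, against 8517 of all 17191 tested genes, with a list median of -0.24 (pair medians -0.25, -0.28 and -0.22). The test called 2 lower, RMI1 (-0.31, edgeR adjusted p = 0.0273), part of the complex that dissolves Holliday junctions, and the end-resection factor RBBP8 (-0.23, 0.0387). It called 1 higher, RAD50 (0.25, 0.0275), 77.7% of whose 50-base words are shared with other genes' transcripts. These counts are near the shares over all tested genes (6.05% lowered and 5.43% raised), and each of the 3 was lost without any 1 pair. In the 6-library fit, which called 10.5% of all genes lower and 7.31% higher, 11 were lower and 2 higher. RAD51AP1, which acts in strand exchange, stood at 24.5, 11.1 and 8.76 CPM in the controls and 13.2, 4.89 and 4.45 CPM in the knockdown libraries (adjusted p = 0.00071 in that fit and 0.372 in the 12-library fit). EXO1, EME1 and BRIP1 were also lower in the 6-library fit, and BARD1, at 0.45, was higher.

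The Fanconi anemia list, whose proteins repair crosslinks, held 1 raised gene, the nuclease scaffold SLX4 (0.34, edgeR adjusted p = 0.0151), and 1 lowered, FANCE (-0.56, 0.0275), among 17. The 6-library fit called 6 lower, FANCA, FANCG, FANCI and UBE2T among them, and 1 higher. Of 18 end-joining genes, PRKDC, the catalytic subunit of DNA-dependent protein kinase, rose from 368, 475 and 546 CPM to 485, 548 and 627 CPM (0.27, SE 0.07, adjusted p = 0.0293), and the list median was 0.03. In damage signalling, RAD1 of the checkpoint clamp fell (-0.36, 0.00672), and the p53 regulators MDM4 (0.28, 0.0188) and MDM2 (0.30, 0.028) rose, of 20 tested. SLX4 was lost without pair 2 or 3, RAD1 without pair 3, and FANCE, PRKDC, MDM4 and MDM2 without any 1 pair.

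Messages of p53 targets were slightly higher in the knockdown. Of 28 tested, 7 rose and 0 fell, and 22 were higher in all 3 pairs, against 26% of all tested genes. The median was 0.20, with pair medians of 0.22, 0.20 and 0.17. TP53INP1, an autophagy and stress protein, stood at 479.6, 685 and 654 CPM in the controls and 699.8, 929 and 871 CPM in the knockdown libraries (0.47, SE 0.08, edgeR adjusted p = 0.00405), with no overlap of the groups. BTG2, an antiproliferative factor (0.47, 0.0105), XPC of nucleotide excision repair (0.33, 0.0225) and the metabolic regulator TIGAR (0.60, 0.0262) also rose.

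CDKN1A, which encodes the cell cycle inhibitor p21, stood at 313, 298 and 333 CPM and 401, 459 and 477 CPM. Every knockdown library lay above every control, yet the gene was not called in the 12-library fit (0.50, SE 0.27, edgeR adjusted p = 0.317) and was in the 6-library fit (0.00245). That fit called 12 of the list higher and 1, SESN2, lower. Without pair 1, 2 or 3 the 12-library fit called 3, 0 and 1 higher. Uncertain counts touch TIGAR, 42.6% of whose 50-base words are shared with other genes, and XPC, 30.4% of whose exon positions overlap another gene.

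Of 15 tested genes of the BCL2 family 3 rose and 2 fell, against 5.43% raised and 6.05% lowered over all tested genes. The death-promoting members BCL2L11 (0.32, edgeR adjusted p = 0.0126), BAX (0.39, 0.0363) and BMF (0.49, 0.0484) rose, and the survival gene BCL2 fell (-0.71, 0.0305). HRK, another death-promoting member, fell from 0.305, 2.58 and 2.84 CPM to 0.23, 0.563 and 0.404 CPM (-2.14, SE 0.39, 0.00747), with pair differences of -0.31, -2.05 and -2.59. Control 1 already held HRK at the level of the knockdown libraries. Without pair 1 the count stayed at 3 and 2, and without pair 2 or 3 it was 0.

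Genes driven by ATF4 in the amino acid stress response split by pair. Pair medians over 27 genes were 0.29, -0.98 and -1.05, and the overall median was -0.62. The list mean was 5.71 log2 CPM in control 1 against 7.10 and 7.16 in controls 2 and 3, while the knockdown libraries lay together at 6.00, 6.10 and 6.08. ASNS, asparagine synthetase, shows the pattern: 126, 453 and 442 CPM in the controls and 175, 191 and 189 CPM in the knockdown libraries. The 12-library fit called 1 member, the lipoprotein receptor VLDLR (-0.65, SE 0.16, edgeR adjusted p = 0.0355). Without pair 1 it called 16 of 27, all lower, ASNS and PSAT1 among them, and without pair 2 or 3 it called 0.

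The 3 genes with the widest spread between pairs were CHAC1 and SLC7A11, members of the same list, and SLC1A4, which is not on it. CHAC1, which degrades glutathione, stood at 2.71, 37.5 and 45.5 CPM and 6.99, 9.14 and 8.81 CPM, with pair differences of 1.34, -2.03 and -2.36. SLC7A11, the cystine importer, had 0.76, -2.05 and -2.03, and the neutral amino acid transporter SLC1A4 had 0.04, -2.68 and -2.74. None of the 3 was called (edgeR adjusted p = 0.175 to 0.375). Control 1 was the lowest control for each.

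Unfolded protein response genes differed more evenly between pairs, with 4 of 22 lowered, 0 raised and pair medians of -0.22, -0.14 and -0.11. EIF2AK3, which encodes the stress sensor kinase PERK, stood at 34.1, 52 and 48.4 CPM in the controls and 21.7, 26.2 and 26 CPM in the knockdown libraries (-0.85, SE 0.09, edgeR adjusted p = 0.000181), with no overlap, and stayed called without any 1 pair. The co-chaperones DNAJC3 (-0.37, 0.00335) and DNAJB9 (-0.46, 0.017) and the secreted factor CRELD2 (-0.32, 0.0446) fell too. Without pair 1, 2 or 3 the counts lowered were 5, 2 and 1.

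Among heat shock chaperones 2 of 17 rose, the cytosolic HSP90AA1 (0.36, edgeR adjusted p = 0.00853) and HSPA4 (0.24, 0.0291), and DNAJB4 fell (-0.40, 0.0232). Without pair 1 the fit called 6 raised and 0 lowered, and without pair 2 or 3 it called none. The proteasome list held 3 lowered genes of 31, with a median of 0.003. Beside PSMB5, PSMB4 (-0.33, 0.0124) and PSMC3 (-0.25, 0.0339) fell by far less. PSMB5 was called without any 1 pair, and 2, 1 and 1 of the list were without pair 1, 2 and 3.

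**Figure D5:**
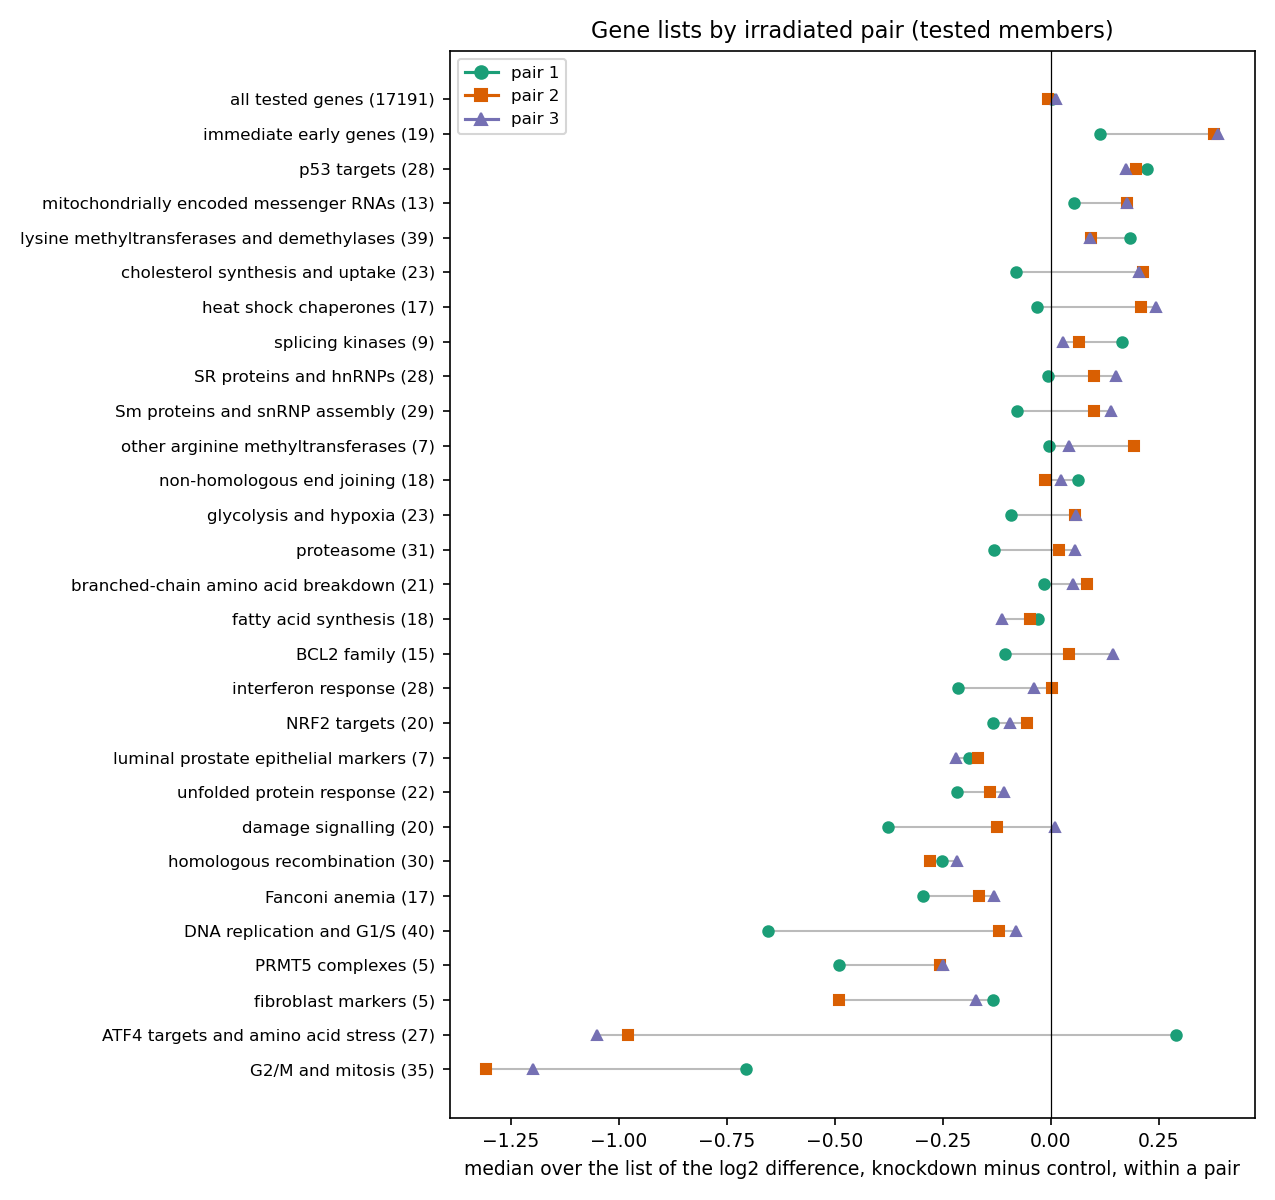
Median log2 difference of knockdown and control within each irradiated pair, for all tested genes and for the 28 lists with at least 5 tested members (number in brackets). G2/M genes lie lowest in pairs 2 and 3 (-1.31 and -1.20), ATF4 targets are positive in pair 1 (0.29) and near -1 in the others, and all tested genes lie near 0.

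Of 23 genes of cholesterol synthesis and uptake 5 rose and 1 fell. Among the raised genes were STARD4, a sterol carrier (0.40, edgeR adjusted p = 0.00387), HMGCS1 (0.34, 0.0176) and MSMO1 (0.34, 0.0273) of the synthesis pathway. FASN, fatty acid synthase, was the single call of 18 fatty acid genes (0.42, 0.00733). Without pair 1 the cholesterol count was 4 raised and 0 lowered, and without pair 2 or 3 neither list had a call.

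In branched-chain amino acid breakdown the subunits of 1 enzyme moved in opposite directions. MCCC2 fell as given above, while its partner subunit MCCC1 stood at 145, 96.2 and 94.1 CPM in the controls and 181, 133 and 126 CPM in the knockdown libraries (0.40, SE 0.07, edgeR adjusted p = 0.00562; 0.091 and 0.082 without pair 2 and 3). The other 19 of 21 genes were not called, and the list median was -0.01. In glycolysis and hypoxia PFKP fell (-0.47, 0.00502) and EGLN3 (0.59, 0.0194) and PGAM1 (0.36, 0.0196) rose among 23, and of these PFKP alone stayed called without pair 2 and none without pair 3. Of 13 mitochondrially encoded messages, MT-ND2 (0.28, 0.0344) and MT-ND3 (0.46, 0.0433) of respiratory complex I rose, with 0 called without any 1 pair. Counts are uncertain for PGAM1 and MT-ND2, which share 30.5% and 43.6% of their 50-base words with other genes. Mitochondrial genes held 6.55% to 7.43% of the counts of the 6 libraries.

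Enzymes that write or erase lysine methylation were raised in 10 and lowered in 2 of 39 cases, with a median of 0.14, against 5.43% raised and 6.05% lowered over all tested genes. The H3K4 demethylase KDM5B stood at 93.4, 129.6 and 129.9 CPM and 137, 180.1 and 186 CPM (0.51, SE 0.06, edgeR adjusted p = 0.000421), and the H3K27 demethylase KDM6B at 85.2, 109 and 123 CPM and 138, 157 and 168 CPM (0.56, SE 0.08, 0.00144). Both were separated between groups and called without any 1 pair. EZH2, the H3K27 methyltransferase, fell (-0.49, 0.0043), as did SMYD2 (-0.82, 0.00485). Both lost the call without pair 2 or 3. Without pair 1, 2 or 3 the counts were 5 raised and 2 lowered, 2 and 0, and 3 and 0.

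Immediate early genes, transcribed within minutes of a stimulus, rose in 5 of 19 cases and fell in 0 in the 12-library edgeR fit (5.43% and 6.05% over all tested genes), with a median of 0.28. DESeq2 and the 6-library fit also called 1 lower and limma-voom 2, and the 1 in the 6-library fit was JUND (-0.41 in the 12-library fit, adjusted p = 0.0655 there and 0.0114 in the 6-library fit). JUNB, a subunit of the AP-1 factor, stood at 17.5, 10.1 and 8.87 CPM and 23.7, 19.3 and 15.9 CPM (0.73, SE 0.12, edgeR adjusted p = 0.00321). The phosphatase DUSP5 (1.04, 0.0133), IER2 (0.34, 0.0151) and BTG2 above also rose, and 30.8% of the exon positions of IER2 overlap another gene. Of 28 interferon response genes 2 rose, TRIM22 (0.85, 0.00634) and IRF9 (0.71, 0.0364), and 2 fell, IFI35 (-0.81, 0.0126) and IFI6 (-0.62, 0.032). For IRF9, 48.4% of exon positions overlap another gene and 43.6% of the 50-base words are shared, so its count is uncertain. All 4 are low messages, at most 5.92 CPM in any library. Of 20 NRF2 pathway genes KEAP1 (-0.25, 0.0256) and PGD (-0.32, 0.0263) fell. Without pair 2 or 3 none of these 3 lists had a call. Without pair 1 the counts were 5 raised and 1 lowered immediate early genes, 2 and 1 interferon genes, and 1 and 1 NRF2 genes.

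Marker genes were checked against the labelled cell type. The 7 luminal prostate markers summed to 5871 to 6696 CPM in the controls and 5177 to 5958 CPM in the knockdown libraries. Of these 7, the prostate sugar transporter SLC45A3 fell from 606, 283 and 332 CPM to 426, 175 and 196 CPM (-0.65, SE 0.07, edgeR adjusted p = 0.00026), and 6 were not called. Basal markers summed to at most 5.57 CPM and neuroendocrine ones to at most 48.4 CPM, of which ENO2 made up the most, and none of either list was called. NEUROD1 was at 0 in all 6 libraries. Leukocyte markers summed to 78.4 to 259 CPM in the controls and 98.1 to 243 CPM in the knockdown libraries, nearly all from LCP1, while CD3E, MS4A1 and TYROBP were at 0. Fibroblast markers summed to 17.3 to 23.8 CPM in the controls and 21.2 to 23.3 CPM in the knockdown libraries, most of it from COL1A1, which was not called (0.16, adjusted p = 0.394). Of 5 tested, 3 were lower in all 3 pairs and not called, the list median was -0.57, and COL3A1 rose from 1.03, 0.684 and 0.455 CPM to 1.96, 2.88 and 2.83 CPM (1.82, 0.00302), while COL1A2 and PDGFRA were at 0. These marker lists were not tested as a source of any result above.

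The same knockdown without irradiation gave 2349 raised and 2427 lowered genes of the 17191 tested in the same fit. Both effects were tested against the same estimate of spread for each gene, so the calls of the irradiation states are not independent. Of the raised genes after 2 Gy, 677 (72.5%) were also raised there, 28.8% of the larger list. Of the lowered genes 801 (77.0%) were shared, 33.0% of the larger list. The difference between the knockdown effects passed for 0 genes with edgeR (lowest adjusted p = 0.173; 2093 genes at an unadjusted p under 0.05), for 65 with DESeq2 and for 0 with limma-voom. PRMT5 itself fell by 2.67 on the log2 scale without irradiation (adjusted p of the difference 0.43). DGKH changed by 0.95 after 2 Gy and 0.57 without it, and PLA2G2A by 2.04 and 3.00, differences that did not pass the test (adjusted p = 0.253 and adjusted p = 0.435). The irradiation states are deposited as separate tables, so state and table cannot be told apart.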

How the data were processed

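RNA of LNCaP-shPRMT5 cells was isolated with Trizol and sequenced from polyadenylated libraries, per the labels' protocols. The authors deposited raw counts per gene in separate tables of 6 irradiated and 6 non-irradiated libraries, and the submitters' processing notes name STAR 2.5, featureCounts in Subread 1.5.3, edgeR 3.20.8 and GRCh38. The tables' gene lengths, as deposited by the authors, were not used in the tests. Not given in the sources used here: the strand setting, how multiply mapping reads were counted, and the sequencing runs.

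Of 63299 listed genes, 57492 (90.8%) matched GENCODE 29. edgeR 4.0.16 in R 4.3.3 (TMM scaling, filterByExpr with a minimum count of 10 and a minimum total of 15) fitted 1 robust quasi-likelihood model to all 12 libraries, with a term for each pair and a knockdown effect per irradiation state, with 4 residual degrees of freedom (biological coefficient of variation 0.0978). Fold changes after 2 Gy use the 3 irradiated pairs only. Replicate numbers were taken as pairs because the comparison was defined as matched by replicate number. Same-numbered libraries correlated at 0.78, 0.61 and 0.61. Control 3 with knockdown 2 (0.48) and control 2 with knockdown 3 (0.40) also correlated, so these values set pair 1 apart more clearly than pair 2 from pair 3. A gene was called raised or lowered at a Benjamini-Hochberg adjusted p under 0.05 over 17191 genes, and SE is the absolute log2 fold change divided by the root of F. The script was tested on simulated counts. CPM use TMM-scaled library sizes, and list means average log2 CPM (prior count 2). Alternatives used DESeq2 1.42.0, limma 3.58.1, other scalings, no filter, no block, the 6 irradiated libraries, and each pair left out.

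Named genes are PRMT5, the 15 largest changes each way among called genes of at least 5 CPM that moved the same way in all 3 pairs, up to 4 called members of each of 31 lists (or 2 where none was called) by smallest p, and the 3 genes with the widest spread between pairs. Other genes named (such as KIF2C, PLK1, CCNB1, TOP2A, RRM2, CDC6, CDT1, ORC6, RAD51AP1, EXO1, BARD1, FANCA, CDKN1A, SESN2, ASNS, PSAT1, BMF, ABHD2, GEMIN5, SNRPA, JUND, COL1A1 and the neighbours of PRMT5) were chosen after their values were seen. Some results for single genes of the lists are not reported here. The comparison and its lists were chosen with earlier results of these data known. In 3′ untranslated regions, taken from 1 GENCODE 29 transcript per gene (longest coding part, then longest region), the word was searched on the transcript strand.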

Additional observations from a re-analysis of the deposited data

Results flagged for a closer look

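For genes of DNA replication and G1/S the list median was below 0 in all 3 irradiated pairs and above 0 in all 3 pairs without irradiation. The median log2 fold change after 2 Gy was -0.304, with pair medians of -0.65, -0.12 and -0.08. The pair medians without irradiation were 0.11, 1.27 and 1.01. This difference between the irradiation states was not tested for the list as a whole, and none of its 40 genes had a difference that passed with edgeR's quasi-likelihood test (lowest adjusted p = 0.18).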

How the results depend on the processing

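With no replicate block the counts were 1 raised and 50 lowered genes, and leaving out 1 pair gave 68 to 880 raised and 214 to 967 lowered genes, the lower ends without pair 2 or 3. The 6 irradiated libraries alone gave 1699 lowered genes and no filter on low counts gave 1872. The count of genes whose knockdown effect differed between irradiation states was 686 with no filter and 65 with DESeq2, against 0 in the other fits that could give it (the 6 irradiated libraries alone could not). DESeq2 called 711 raised and 760 lowered genes, limma-voom 939 and 1095, relative log expression scaling 972 and 999, and scaling by library size 866 and 1066. PRMT5 stayed between -2.84 and -2.91 and was called in all 10 alternatives. Of 105 named genes 92 were called. Beside PRMT5, 80 of them lost the call with no replicate block, 24 without pair 1, 62 without pair 2 and 65 without pair 3, and 9 did with DESeq2. Signs turned only for uncalled marker genes in fits without 1 pair: ENO2 ranged from -0.022 to 0.11, SYP from -0.11 to 0.055 and ITGB4 from -0.38 to 0.25. The cause of these shifts was not tested. Depth limits genes under about 1 CPM, and 3 pairs limit the precision of each fold change.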

Other observations

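Beyond the gene lists, transcripts of the imprinted 15q11 region and genes of class I antigen presentation were looked at after their values had been seen. In part of 15q11, 5 of 9 transcripts of at least 1 mean CPM rose with the knockdown after 2 Gy, and 0 fell. These 9 lie between 24954986 and 25439056 on chromosome 15. Transcripts lying elsewhere in 15q11, or only partly inside the chosen stretch, were not counted. Over all tested genes, without that CPM limit, 5.43% were raised and 6.05% lowered. The long non-coding host SNHG14 stood at 378, 346 and 340.3 CPM in the controls and 439, 467 and 465 CPM in the knockdown libraries (log2 fold change 0.37, SE 0.09, edgeR's quasi-likelihood adjusted p = 0.0299). SNURF rose from 3.63, 3.54 and 3.75 CPM to 5.72, 7.07 and 6.87 CPM (0.84, SE 0.14, 0.0033), with 69.3% of its exon positions shared with another gene. PWAR6 (0.32), PWAR5 (0.79) and RP11-701H24.4 (0.53) also rose, while the protein-coding neighbour UBE3A, at 0.12, was not called. The transcripts overlap one another in part, none of the 5 stayed called in all 3 fits that leave out 1 pair, and whether the changes share a source was not tested.

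In class I presentation, the heavy chain HLA-B stood at 22, 31.4 and 30 CPM in the controls and 9.49, 13.1 and 13 CPM in the knockdown libraries (-1.23, SE 0.20, edgeR adjusted p = 0.0136). HLA-C stood at 73.9, 59.8 and 62.2 CPM and 35.2, 36.7 and 35 CPM (-0.87, SE 0.10, 0.000697) and was the 1 gene of the set that stayed called without any 1 pair. The peptide transporter subunit TAP2 fell (-0.58, 0.00949), while its partner TAP1 was at 0.26 and the light chain B2M at -0.09, neither called. Reads of HLA genes can be shared between near-identical loci, so the counts are uncertain.

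After 2 Gy 6 genes were called in the direction opposite to that without irradiation. LYRM7, a mitochondrial assembly factor, was raised (0.22) and fell by 0.24 on the log2 scale without irradiation. CHAF1B, a histone chaperone subunit, was lowered (-0.60) and stood at 0.67 without irradiation. CTSV, EMP2, SEPT3 and PAQR4 were lowered as well. The difference between the states did not pass for any of the 6 with edgeR (adjusted p = 0.173 to 0.193), and none stayed called after 2 Gy without any 1 pair.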
